A study of Mus musculus with 18 samples.

Results

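The subject is acute myeloid leukemia (AML) that lacks p53, taken from mice 10 h after treatment with CX-5461 or with vehicle. CX-5461 is a small molecule that inhibits transcription by RNA polymerase I (Pol I). The 6 samples labelled p53null and 10 h were used, 3 with CX-5461 and 3 with vehicle, out of 18 samples in 6 groups. All 12861 genes of the authors' deposited table for that comparison were kept, out of 13787 genes in any of the 3 deposited tables. The leukemia was driven by the MLL/ENL fusion together with Nras, and the cells were grafted into syngeneic C57BL/6 recipients. Animals with established disease were dosed and then killed, and GFP-positive tumour cells were sorted from bone marrow for RNA sequencing. All groups share the strain, the MLL/ENL and Nras drivers, the transplant and the sort; the other groups carried wild-type p53 (p53WT) and were taken at 10 h or 72 h, again 3 with CX-5461 and 3 with vehicle at each time. The labels give no dose, no age of the animals and no description of which part of the p53 gene is missing. At 10 h, sample titles of the 2 genotypes carry different tags, so the genotype and the particular leukemia behind it cannot be told apart. The labels do not say that each sample is a separate animal, so the p-values measure the spread between these samples, which may be partly technical.

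Pol I makes the precursor of the large ribosomal RNAs in the nucleolus. When that step fails, free ribosomal proteins such as those encoded by Rpl5 and Rpl11 bind Mdm2, the ubiquitin ligase that keeps p53 low, and p53 then switches on genes for arrest and cell death. Cells without p53 lack that route. The genes that drive entry into mitosis and the separation of chromosomes are transcribed late in the cell cycle, in G2 and M phase, and many of their promoters hold a motif called CHR (cell cycle genes homology region, TTTGAA) and one or more CCAAT boxes.

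For the p53null comparison the authors' deposited table gives, per gene, a mean level in log2 CPM (read counts scaled to each library's total), a log2 fold change of CX-5461 over vehicle, an edgeR p-value and a false discovery rate (FDR). It holds no value per sample and no standard error, so the replicate spread enters only through edgeR's p-value, and the depth of these 6 libraries is unknown. A gene is called here when its deposited FDR was under 0.05. The group levels given below were worked out from the deposited mean and fold change and carry no error; in the p53WT 10 h table, where counts allow the check, such levels differed from the measured group means by a median of 1.49%. That table's fold changes also correlated at r = 1.0 across genes with those computed from its counts, which fixes the direction there as CX-5461 over vehicle. The same direction was taken for the p53null table.

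Few genes changed in p53null AML at 10 h. In the authors' deposited table, edgeR's FDR was under 0.05 for 24 genes (0.187% of those tested), 19 of them higher with CX-5461 (0.148%) and 5 lower (0.0389%). The rises were small, 0.24 to 0.51 on the log2 scale (1.18- to 1.42-fold). The falls were -0.43 to -0.93 (1.34- to 1.90-fold) and concerned genes with means of 2.35 to 29.6 CPM, against 14.7 to 415 CPM for the genes that rose. Of the 19 that rose, 10 (52.6%) were on the list of G2/M genes: Ube2c, Ccnb1, Aurka, Cdc25b, Cdk1, Kif20a, Tpx2, Prc1, Hmmr and Ckap2l. With 0.187% of all genes called, a list of the sizes used here would hold 0 calls at the share of all genes, so 0 calls on a list is not a result about that list, and the fold changes are given for description. At an unadjusted p under 0.05, 405 genes were higher (3.15%) and 376 lower (2.92%).

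The promoters of genes that rose are shown first. The rule for calling a gene did not use their motifs. Of the 19 genes that rose, 10 are on the G2/M list, whose promoters often hold both motifs, called or not. The shares below are therefore not separate from that membership. Each sequence is the 120 bases before the transcription start, 5′ to 3′ on the gene's own strand, from RefSeq on build GRCm38.p6; the study's reads were aligned to mm9, and no coordinates were converted. Capitals mark CHR (TTTGAA, or TTCAAA on the other strand) and CCAAT (or ATTGG on the other strand). The 6 mitotic and import genes come first, followed by Dusp2, a gene that fell.
Kpna2, chr11:106999526-106999645, minus strand: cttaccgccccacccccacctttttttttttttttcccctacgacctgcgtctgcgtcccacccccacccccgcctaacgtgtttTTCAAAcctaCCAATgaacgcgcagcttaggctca
Ube2c, chr2:164769809-164769928, plus strand: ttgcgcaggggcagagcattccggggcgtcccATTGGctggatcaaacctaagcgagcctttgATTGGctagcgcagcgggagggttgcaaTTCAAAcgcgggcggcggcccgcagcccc
Ccnb1, chr13:100786487-100786606, minus strand: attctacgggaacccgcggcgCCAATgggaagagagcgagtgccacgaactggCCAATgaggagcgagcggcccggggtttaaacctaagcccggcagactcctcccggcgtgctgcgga
Aurka, chr2:172370571-172370690, minus strand: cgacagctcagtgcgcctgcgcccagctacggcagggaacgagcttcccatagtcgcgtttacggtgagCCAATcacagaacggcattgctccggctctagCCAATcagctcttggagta
Cdk1, chr10:69352913-69353032, minus strand: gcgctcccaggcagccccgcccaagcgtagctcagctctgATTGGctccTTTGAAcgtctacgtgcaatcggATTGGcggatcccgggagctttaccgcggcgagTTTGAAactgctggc
Prc1, chr7:80294356-80294475, plus strand: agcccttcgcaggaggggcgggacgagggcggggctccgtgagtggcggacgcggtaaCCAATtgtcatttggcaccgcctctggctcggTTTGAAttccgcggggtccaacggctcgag
Dusp2, chr2:127336039-127336158, plus strand: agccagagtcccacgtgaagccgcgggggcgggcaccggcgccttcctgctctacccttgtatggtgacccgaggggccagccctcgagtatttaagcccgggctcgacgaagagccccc
The 2 motifs were searched on both strands in the 300 bases from 250 before to 50 after each start, and no match of one overlapped a match of the other in the called genes. Of the 19 genes that rose, 13 had a promoter in the RefSeq table, and 9 of these (69.2%) held a CHR match, against 14.7% of the 9110 genes of the p53null table that had a promoter. A CCAAT match stood in 12 of the 13 (92.3%) against 43.4% of all genes, and both motifs in 8 (61.5%) against 7.26%. The one promoter without CCAAT was that of Hdc. Of the 5 genes that fell, Dusp2, Gnpda2 and Ung had a promoter in the table, and 0 of these 3 held either motif. Over the 300 bases, Ccnb1 held 2 CCAAT matches and no CHR match in these letters, and Cdk1 held 2 CHR and 3 CCAAT matches. Some of the counted matches lie outside the 120 bases printed above, among them the 1 CHR match of Aurka. Among 46 G2/M genes with a promoter, called or not, 69.6% held CHR and 76.1% CCAAT; among 29 genes of the G1/S step the shares were 13.8% and 65.5%, and among 51 ribosome biogenesis genes 11.8% and 47.1%. A match is a description of the sequence and was not tied to the binding of any factor here.

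**Figure D1:**
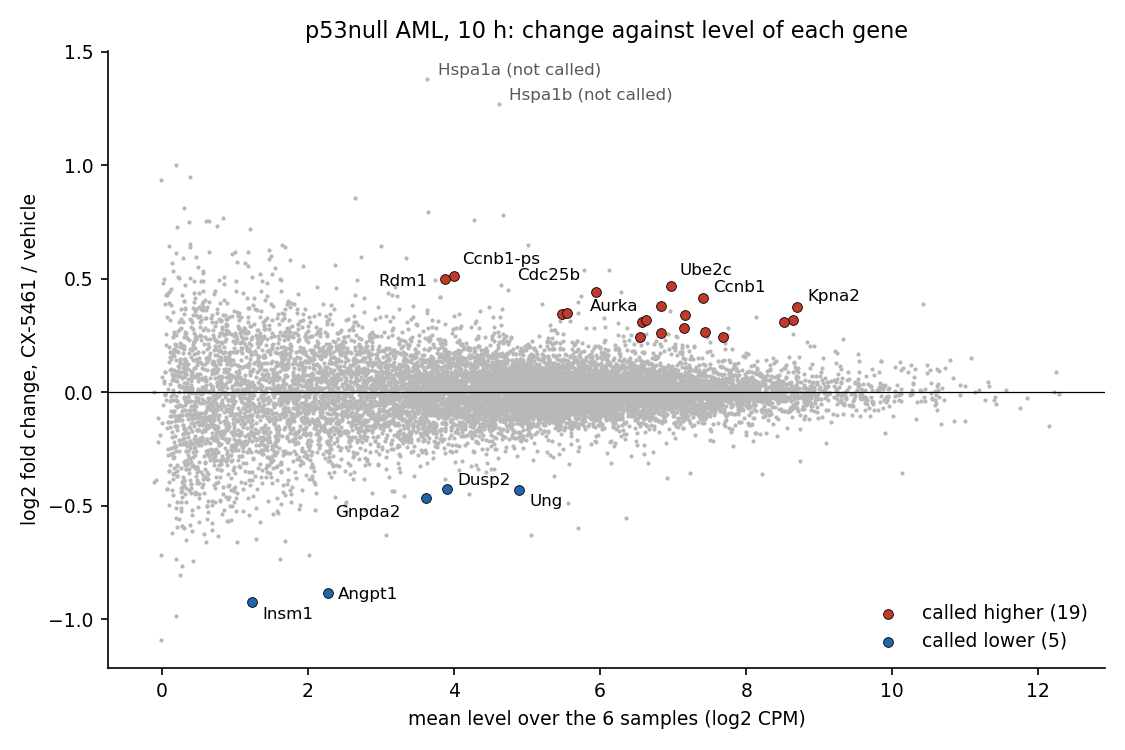
Log2 fold change (CX-5461 over vehicle) of each of the 12861 genes of the p53null 10 h table against its mean level over the 6 samples in log2 CPM, from the authors' deposited table. The 19 genes called higher (red) lie between 0.24 and 0.51 and the 5 called lower (blue) between -0.43 and -0.93, while Hspa1a and Hspa1b lie highest and were not called.

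Cdk1, its cyclin Ccnb1 and its activator Cdc25b rose, while the other regulators of Cdk1 given here were not called. Ccnb1, cyclin B1, the partner that lets Cdk1 start mitosis, had implied levels of 145 CPM with vehicle and 193 CPM with CX-5461, a log2 fold change of 0.41 in the authors' deposited table (edgeR FDR 0.000172). Cdk1, the kinase itself, went from 158 to 189 CPM (0.27, edgeR FDR 0.00308 in the authors' deposited table). Cdc25b, a phosphatase that removes the inhibitory phosphates of Cdk1, went from 52.4 to 71.1 CPM (0.44, edgeR FDR 0.00235 in the authors' deposited table). The other cyclins of this step did not pass: Ccna2 stood at 0.22 (FDR 0.119) and Ccnb2 at 0.20 (FDR 0.25) by edgeR in the authors' deposited table. Neither did the opposing kinases, with Wee1 at 0.08 and Pkmyt1 at -0.02, nor the related phosphatase Cdc25a, at -0.03.

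The other 7 called members of the G2/M list were Ube2c, Aurka, Tpx2, Hmmr, Kif20a, Prc1 and Ckap2l. Ube2c, the ubiquitin-conjugating enzyme of the anaphase-promoting complex, had the largest rise of the G2/M list, from 105 to 146 CPM (0.47, edgeR FDR 2.76e-07 in the authors' deposited table). Cdc20, which activates that complex, stood at 0.25 (FDR 0.231) and its later activator Fzr1 at 0.22 (FDR 0.379), and neither was called. Aurka, Aurora kinase A, which matures the spindle poles, rose from 99.2 to 129 CPM (0.38, edgeR FDR 0.00044 in the authors' deposited table). Tpx2, which binds Aurora A and activates it on the spindle, rose from 189 to 223 CPM (0.24, FDR 0.0129), and Hmmr, a spindle-assembly protein, from 104 to 125 CPM (0.26, FDR 0.0083). Kif20a, a kinesin of cytokinesis, and Prc1, which bundles the microtubules of the midzone, rose by 0.32 and 0.28 (edgeR FDR 0.00894 and 0.0295 in the authors' deposited table). Ckap2l, another spindle protein, rose from 85.5 to 101 CPM (0.24, FDR 0.0305). Polo-like kinase Plk1 (0.24, FDR 0.278), the checkpoint kinase Bub1 (0.23, FDR 0.163) and Aurora kinase B, Aurkb (0.09), were not called.

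The G2/M list as a whole leaned upward. All 54 of its members were in the p53null table; 10 were called higher and 0 lower, and 32 were higher at an unadjusted p under 0.05 with 0 lower. That is 18.5% called higher against 0.148% of all genes. Of the members, 51 had a positive fold change and 3 a negative one, with a median of 0.18 where the median of all genes was -0.0019. The 44 members that were not called had a median of 0.14. Summed over the list, the implied level went from 6859 CPM with vehicle to 7726 CPM with CX-5461, 1.13-fold. The list had the highest median of the 32 lists with 8 or more measured members. Interferon-stimulated genes came next, at 0.15 with 34 of 35 positive and 0 called. Members of 1 list can respond to shared signals, so their common sign is not that many separate observations. Other members of the G2/M list had smaller values. Top2a, the topoisomerase that untangles sister chromatids, stood at 0.14 (FDR 0.854) and Mki67, the Ki-67 antigen, at 0.08 (FDR 0.999). Foxm1, a transcription factor of G2/M genes, stood at 0.10. These are bulk samples, so more cells in G2 and M phase and more of these transcripts per cell cannot be told apart.

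**Figure D2:**
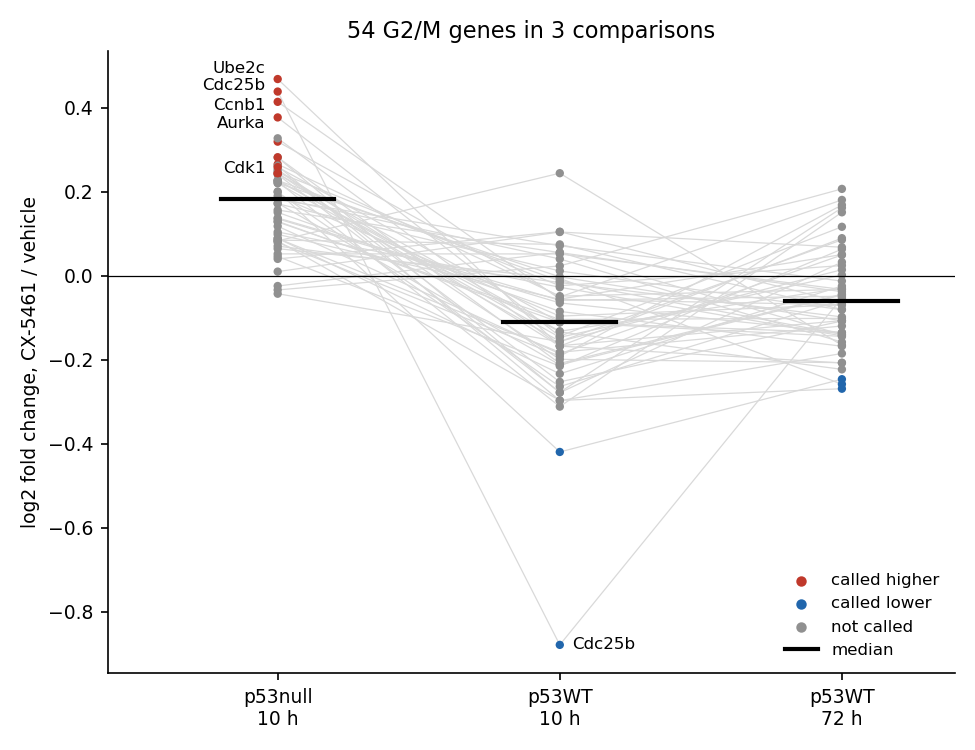
Log2 fold change (CX-5461 over vehicle) of the 54 G2/M genes in the 3 comparisons of the series, from the authors' deposited tables; grey lines join a gene, black bars are medians and colours mark calls at FDR under 0.05. The medians are 0.18 in p53null at 10 h, -0.11 in p53WT at 10 h and -0.06 in p53WT at 72 h.

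Another 9 genes rose that are not on that list. The list is not complete, so a gene outside it may also be transcribed in G2 and M phase. Kpna2, importin alpha, which carries proteins into the nucleus and holds spindle factors such as Tpx2 until mitosis, rose from 361 to 469 CPM (0.37) with the smallest p of the authors' deposited table (edgeR FDR 2.76e-07). Arl6ip1, which shapes membranes of the endoplasmic reticulum, rose from 356 to 444 CPM (0.32, edgeR FDR 0.000172). Cip2a, an inhibitor of protein phosphatase 2A, rose from 85.2 to 105 CPM (0.31, FDR 0.00894), and Tubb4b, a beta-tubulin, from 328 to 407 CPM (0.31, FDR 0.012). Hdc, histidine decarboxylase, which makes histamine in immature myeloid cells and basophils, rose from 126 to 159 CPM (0.34, FDR 0.00812). Rdm1, a protein with a RAD52 motif, rose from 12.2 to 17.2 CPM (0.50, FDR 0.0305). The mitochondrial 16S ribosomal RNA, mt-Rnr2, which is not made by Pol I, rose from 41 to 52.1 CPM (0.35, edgeR FDR 0.0295 in the authors' deposited table). The other ribosomal RNA of mitochondria, mt-Rnr1, read from the same strand, stood at 0.08 (FDR 1).

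The remaining calls among the rises were copies of genes already named. Gm10184 (0.34) is 99.9% identical to Kpna2 over 1968 bases of transcript, and Ccnb1-ps (0.51) is 99.2% identical to Ccnb1 over 1287 bases. No source used here says how reads shared by such copies were counted, so neither pair can be taken as separate calls. Gm12856, a further copy of Ccnb1 at 98.1%, stood at 0.44 (edgeR FDR 0.0945 in the authors' deposited table). Gm10259, a further copy of Kpna2 at 99.8%, is also in the p53null table. Tubb4b has copies too. It is 98.4% identical over 1339 bases to Tubb4b-ps1, which is not in that table. To Gm16165, which is in it, Tubb4b is 93.8% identical over 769 bases. Kif20a and Gnpda2 each share a stretch of transcript with a neighbouring gene, Cdc23 and Guf1, and reads in it cannot be assigned without strand.

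The 5 genes that fell share no list. Insm1, a zinc-finger repressor known from endocrine and neural precursors, fell from 3.08 to 1.62 CPM (-0.93, edgeR FDR 0.00758 in the authors' deposited table). Angpt1, angiopoietin 1, a secreted ligand of the receptor Tie2 made by immature hematopoietic cells, fell from 6.25 to 3.39 CPM (-0.88, FDR 0.00119). Both lie under a mean of 5 CPM and were not part of the test when genes under that level were left out, so the number of falls was then 3. Ung, the uracil glycosylase that starts repair of uracil in DNA, fell from 33.9 to 25.2 CPM (-0.43, FDR 0.0083). Gnpda2, a glucosamine-6-phosphate deaminase, fell from 14.3 to 10.3 CPM (-0.47, FDR 0.0079), and Dusp2, a nuclear phosphatase that switches off ERK, from 17.2 to 12.8 CPM (-0.43, FDR 0.0079).

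**Figure D3:**
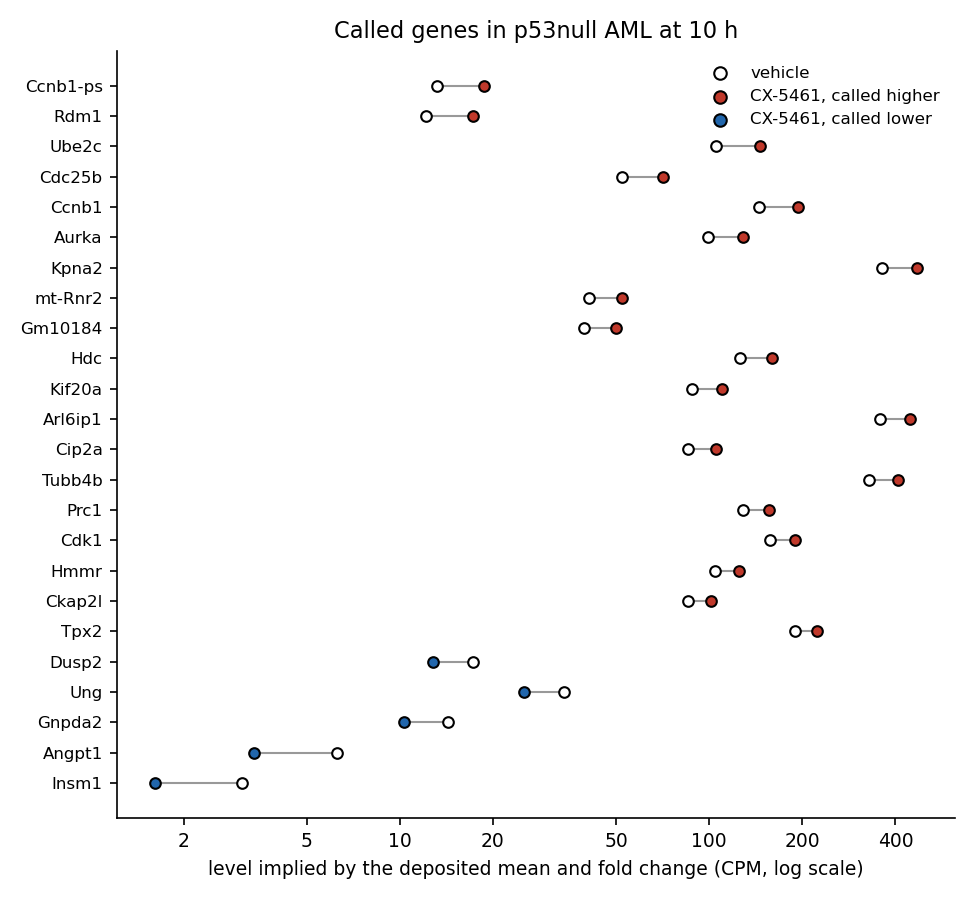
Group levels in CPM (log axis) of the 24 called genes with vehicle (open) and with CX-5461 (filled), worked out from the mean and fold change of the authors' deposited table; there is no error bar because that table has no value per sample. The rises run from 1.18- to 1.42-fold and the falls from 1.34- to 1.90-fold.

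Just outside the threshold, 18 genes had an FDR between 0.05 and 0.1, 10 higher and 8 lower. Among the higher ones were 3 more G2/M genes, the kinesin Kif2c (0.25, FDR 0.0805), the survivin gene Birc5 (0.23, FDR 0.0864) and Nusap1 (0.26, FDR 0.0999). Among the lower ones were the early growth response factor Egr3 (-0.74, FDR 0.0513), the immediate early gene Ier2 (-0.26, FDR 0.0916) and the basophil protease Mcpt8 (-0.45, FDR 0.096), all by edgeR in the authors' deposited table.

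Genes of the preceding step of the cycle, from G1 to S phase, were mostly negative. Of 38 G1/S genes, 37 were in the p53null table and 0 were called by edgeR. At an unadjusted p under 0.05, 1 was higher and 5 lower, against 3.15% and 2.92% of all genes. The G1/S median was -0.04, and 9 of the 37 were positive, against 49.2% of all genes. The cyclins of S phase entry, Ccne1 and Ccne2, stood at -0.26 (FDR 0.19) and -0.28 (FDR 0.23), each by edgeR in the authors' deposited table. The replication clamp Pcna (-0.11) and the helicase subunit Mcm5 (-0.06) were not called either. Of 50 genes of the DNA damage checkpoint and of repair, 0 were called by edgeR, 0 were higher and 1 lower at an unadjusted p under 0.05, and the median was -0.01.

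The p53 targets had fold changes near 0, most of them negative. The gene Trp53 itself stood at 0.01, with implied levels of 61.3 CPM with vehicle and 61.7 CPM with CX-5461. Its mean was 61.5 CPM in the p53null table, 169 CPM in the p53WT 10 h table and 163 CPM in the p53WT 72 h table, lower where the label says p53null; the tables were normalized separately and the difference was not tested. The labels do not say which part of the gene is missing. Of 55 p53 targets on 3 lists, 46 were in the p53null table, and 0 were called by edgeR, near the 0.187% of all genes; at an unadjusted p under 0.05, Gtse1 was higher (0.16) and Plk3 (-0.31) and Rrm2b (-0.19) were lower. The median was -0.05 with a range of -0.31 to 0.16, 12 positive and 34 negative, and the smallest FDR among them was 0.313. Cdkn1a, the p21 inhibitor of cyclin-dependent kinases, went from 55.7 to 54.5 CPM (-0.03). Mdm2, which degrades p53, went from 97.1 to 96.4 CPM (-0.01). The cell death genes Bbc3 (PUMA), Bax and Pmaip1 (NOXA) stood at -0.28, -0.06 and 0.08.

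In p53WT AML at the same time many of these targets rose, in other samples. Of the 46 targets of the p53null table, 45 were also in the p53WT 10 h table, where 22 were called higher and 2 lower, against 3.57% and 6.83% of all its genes. Those 22 had a median of 1.08 in p53WT and of -0.12 in p53null, where they ranged from -0.31 to 0.16. By the authors' deposited tables, Cdkn1a stood at 2.25 in p53WT and -0.03 in p53null, Sesn2, a stress sensor that restrains mTORC1, at 1.76 and -0.22, and Bbc3 at 1.68 and -0.28. Ccng1, cyclin G1, stood at 1.19 and 0.07, and Bax at 0.98 and -0.06. The long noncoding RNA Trp53cor1 stood at 1.90 and -0.31, and the receptor Epha2 at 2.14 and -0.18. Plk2, Zmat3, Phlda3 and Cpt1c were in the p53WT table but not in the p53null one, so they are outside these counts. The difference between the genotypes could not be tested, since a test needs values per sample on both sides; the values are side by side only.

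**Figure D4:**
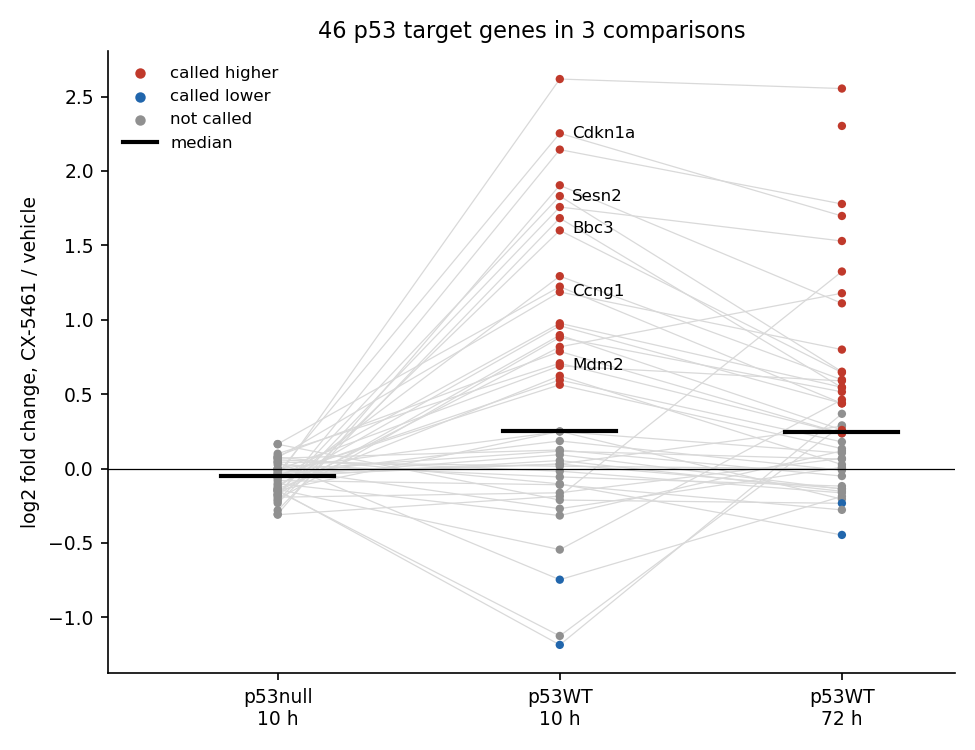
Log2 fold change (CX-5461 over vehicle) of the 46 p53 targets of the p53null table in the 3 comparisons, from the authors' deposited tables, with grey lines joining a gene, black bars for medians and colours for calls at FDR under 0.05. In p53null AML all 46 lie between -0.31 and 0.16, while in p53WT AML at 10 h 22 are called higher and the highest reaches 2.62.

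No gene was called in the same direction in both genotypes at 10 h, and Cdc25b and mt-Rnr2 were called in opposite directions. Of the 19 that rose, 0 were called higher in p53WT at 10 h, which is near the 3.57% of all genes called higher there; 16 had a negative and 3 a positive fold change there, and the median was -0.11 against 0.34 in p53null. For Cdc25b the p53WT libraries read 49.4, 84.6 and 29.1 CPM with vehicle and 29.8, 30.5 and 32 CPM with CX-5461, a log2 fold change of -0.88 in the authors' deposited table (edgeR FDR 0.0312). The groups overlap, and the vehicle library at 84.6 CPM stands far above the other 2. For mt-Rnr2 they read 125, 194 and 81.3 CPM with vehicle and 89.9, 84.8 and 76.2 CPM with CX-5461 (-0.73, edgeR FDR 0.0492 in the authors' deposited table), again with overlap and with the same vehicle library highest.

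None of the 5 genes given next was called in p53WT at 10 h. For Cdk1 the p53WT 10 h libraries read 161, 165 and 149 CPM with vehicle and 158, 158 and 157 CPM with CX-5461, with overlap of the groups. For Ube2c they read 116, 123 and 95.9 CPM with vehicle and 99.1, 93.9 and 115 CPM with CX-5461, also with overlap. For Aurka the vehicle libraries at 108, 100 and 93.9 CPM overlap those with CX-5461 at 91.4, 92.4 and 97.7 CPM. For Tpx2 they read 217, 202 and 201 CPM with vehicle and 184, 192 and 206 CPM with CX-5461, where the highest lies above 2 of the vehicle values. Kpna2 read 160, 138 and 145 CPM with vehicle and 161, 168 and 180 CPM with CX-5461, where the groups do not overlap. Its edgeR FDR was 0.539 for a log2 fold change of 0.16 in the authors' deposited table. The mean of Kpna2 was 158 CPM there, 415 CPM in p53null and 357 CPM in p53WT at 72 h. For its copy Gm10184 the means were 15.3, 44.7 and 38.3 CPM in that order. Whether reads of such copies were counted alike in the 3 comparisons was not tested, so these levels are not a difference between genotypes. Over the 54 G2/M genes, p53WT AML at 10 h had 0 called higher and 2 lower (Cdc25b and Kif23), against 3.57% and 6.83% of all genes. The median was -0.11, with 43 negative fold changes. The summed level of the list was 6788 to 7106 CPM in the p53WT vehicle libraries and 6390 to 6958 CPM in those with CX-5461. In 49 of the 54, the p53null fold change was the higher of the pair, by a median of 0.28 over all 54; whether the genotypes differ was not tested.

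At 72 h, which was sampled only in p53WT among the tables used here, the G2/M list had 0 genes called higher and 3 lower, with a median of -0.06, where 16.1% of all genes were called higher and 15.1% lower. Of the 19 genes that rose in p53null at 10 h, 0 were called higher and only Rdm1 was called lower at 72 h (-0.80). Of the 5 that fell, Ung was called lower (-0.51) and Gnpda2 higher (0.33) at 72 h by edgeR in the authors' deposited table.

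Across all genes the fold changes were less spread in p53null than in either p53WT comparison. The standard deviation of the log2 fold changes was 0.139 in p53null at 10 h, 0.494 in p53WT at 10 h and 0.469 in p53WT at 72 h. A log2 fold change of at least 1 in size was reached by 4 genes (0.0311%), 425 genes (3.35%) and 569 genes (4.43%) respectively. Over 11879 genes in both 10 h tables, Pearson's r of the fold changes was -0.0509 and Spearman's rho -0.0767; genes are not independent replicates, and these are descriptions. Of 380 genes called higher in p53WT at 10 h and present in the p53null table, 0 were called higher there by edgeR's FDR, near the 0.148% of all genes, 6 were higher at an unadjusted p under 0.05 (3.15% of all genes), and the median was 0.56 in p53WT and -0.03 in p53null. Of 803 called lower, 0 were called lower in p53null (0.0389% of all genes), while 24 reached an unadjusted p under 0.05 in that direction, near the 2.92% of all genes, with medians of -0.83 and 0.00. The p53WT vehicle libraries differed from each other in red cell genes, whose summed level ran from 1077 to 19160 CPM, and the part of that spread in the p53WT fold changes was not tested.

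The list of the Pol I machinery holds subunits of the enzyme, factors that bring it to ribosomal DNA, and further proteins such as Top1 and Ncl. All 18 genes of the Pol I machinery were in the p53null table and 0 were called by edgeR, near the 0.187% of all genes; at an unadjusted p under 0.05 the topoisomerase Top1 was higher (0.19) and Polr1b, the second-largest Pol I subunit, lower (-0.12), where 3.15% of all genes were higher and 2.92% lower. The largest subunit, Polr1a, stood at -0.08, the initiation factor Rrn3 at 0.04 and Ubtf, which binds the ribosomal DNA, at -0.04. Their median was 0.00. The median of 18 Pol III genes was also near 0, with 0 called and 0 under an unadjusted p of 0.05 in the authors' deposited table (edgeR). The ribosomal RNA that Pol I makes was not analysed here, so whether the drug lowered it in these samples was not tested.

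Of 60 ribosome biogenesis genes, 59 were in the p53null table, 0 were called by edgeR, 1 was lower at an unadjusted p under 0.05 (Rcl1, -0.16), and the median was -0.03 with 16 positive. In p53WT AML at 10 h, 22 of the 59 were called higher, against 3.57% of all genes, with a median of 0.34. In all 59 the p53WT fold change was the higher of the pair. Nucleolin, Ncl, a nucleolar protein that binds pre-ribosomal RNA, is on the Pol I list. It stood at -0.13 in p53null and 0.39 in p53WT at 10 h, where it was called (edgeR FDR 0.0356 in the authors' deposited table). Of 80 ribosomal protein genes, 79 were in the p53null table, 0 were called and 0 were under an unadjusted p of 0.05 by edgeR, with a median of -0.01. The list of the MYC network and nucleotide synthesis had 28 members in the table and 0 called by edgeR. Only Cks2 (0.17) was higher at an unadjusted p under 0.05, and 0 were lower. Myc itself stood at 0.03, with 264 CPM with vehicle and 269 CPM with CX-5461.

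**Figure D5:**
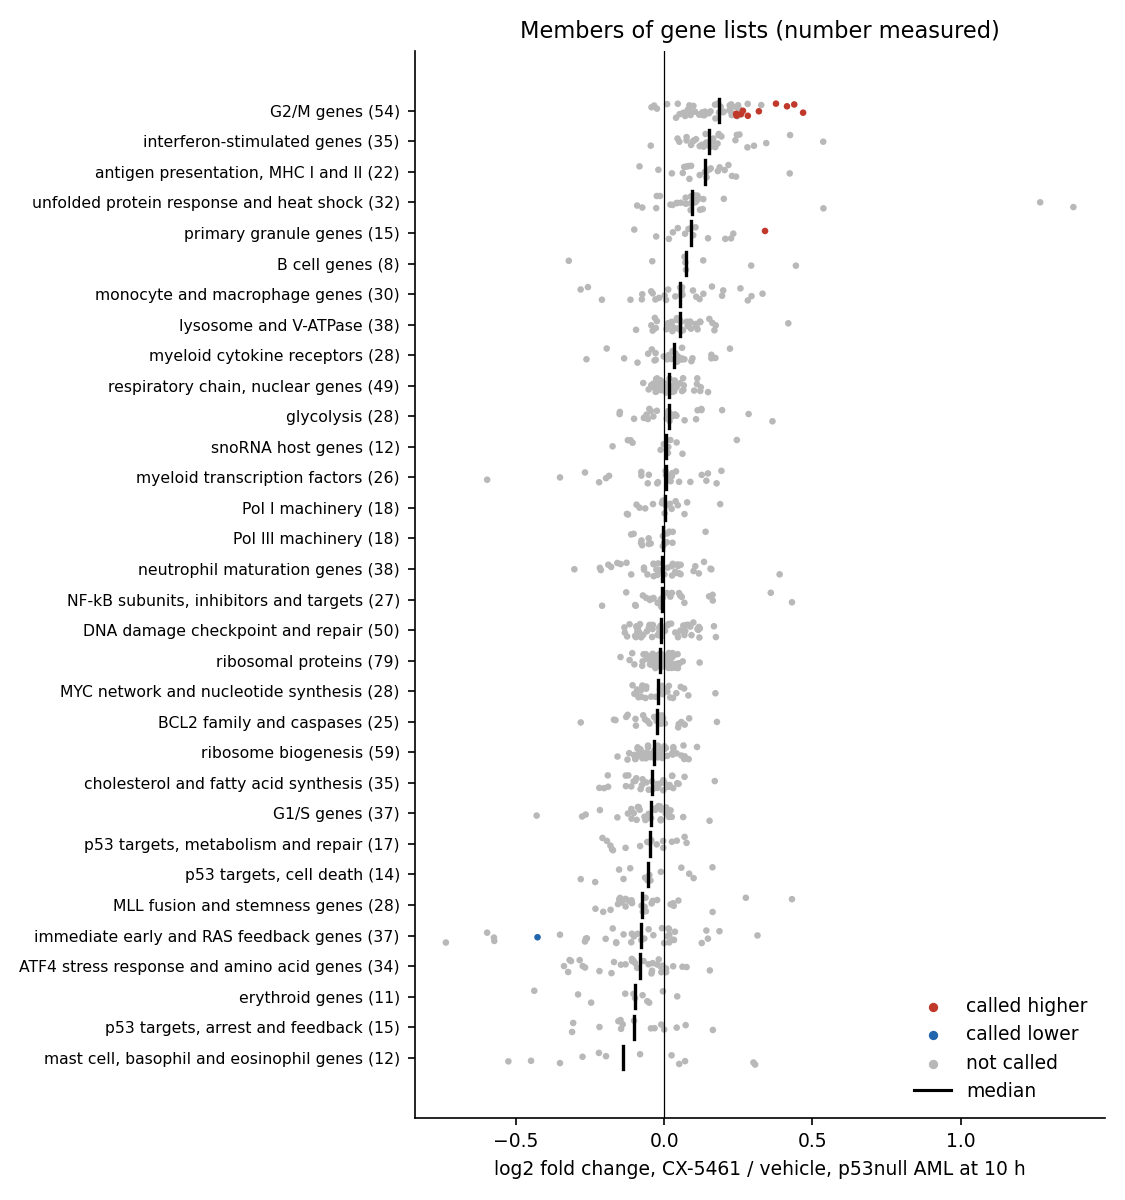
Log2 fold change (CX-5461 over vehicle) in p53null AML at 10 h of each measured member (point) of the 32 gene lists with 8 or more measured members, sorted by median (black bar), from the authors' deposited table. The G2/M list has the highest median, 0.18, and holds 10 of the 12 called points drawn; the other 2 are Hdc and Dusp2.

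MLL fusions keep on a program of homeobox and stem cell genes. Of 33 genes on the list of the MLL fusion and stem cells, 28 were in the p53null table. Of these, 0 were called by edgeR, near the 0.187% of all genes, and the median was -0.07. At an unadjusted p under 0.05, 1 was higher and 1 lower, against 3.15% and 2.92% of all genes. The higher one was the chemokine gene Ccl4, which is also on the NF-kB list (0.43, mean of 3.64 CPM). It is not one of the homeobox genes. The lower one was Hoxa9. Hoxa9, a homeobox gene that MLL fusions keep on, stood at -0.14 (FDR 0.745), its cofactor Meis1 at -0.15 (FDR 0.927) and the receptor Kit at -0.06 (FDR 1) by edgeR in the authors' deposited table. Of 38 genes of neutrophil maturation, 38 were measured, 0 were called by edgeR and 1 was higher at an unadjusted p under 0.05 (Csf3r, the G-CSF receptor, 0.16). Their median was -0.01, and their summed implied level was 21024 CPM with vehicle and 21070 CPM with CX-5461. In p53WT at 10 h, 31 of the 38 were called lower, against 6.83% of all genes, with a median of -1.26. Their summed level ran from 17302 to 30727 CPM in the p53WT vehicle libraries and from 9926 to 11369 CPM in those with CX-5461. The list of primary granule genes, which mark earlier myeloid cells, had 1 gene called higher among 15 measured, against 0.148% of all genes. That gene was Hdc, the histidine decarboxylase named above. The median was 0.09 with 13 positive. The granule genes proper were not called where given here: the proteases Elane and Prtn3 stood at 0.23 (FDR 0.95) and 0.09 (FDR 1), and Mpo, myeloperoxidase, at 0.15 (FDR 0.999).

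The 6 lists of markers for other cells of marrow held 0 calls in p53null by edgeR. Of 28 erythroid genes, 11 were in the table, with a summed implied level of 493 CPM with vehicle and 477 CPM with CX-5461 and a median of -0.10; 0 passed an unadjusted p of 0.05. B cell genes had 8 of 15 measured and a summed level of 89.1 and 95.3 CPM. At an unadjusted p under 0.05, 2 of them were higher, against 3.15% of all genes. T and NK cell genes had 5 of 18 measured, megakaryocyte genes 4 of 11, and stromal and endothelial genes 3 of 15. Mast cell, basophil and eosinophil genes had 12 of 17 measured and a median of -0.14. At an unadjusted p under 0.05, 2 were lower, against 2.92% of all genes. These 2 were Mcpt8 and the mast cell protease Cpa3 (-0.53, FDR 0.382 by edgeR in the authors' deposited table). The defining markers Cd3e, Gata1, Pf4 and Cdh5 were not among the genes of the p53null table.

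Genes of ERK signalling gave the other call on a list. Of 37 immediate early and RAS feedback genes in the p53null table, Dusp2 was called lower by edgeR and 0 higher, against 0.0389% and 0.148% of all genes. At an unadjusted p under 0.05, 9 were lower and 1 higher, against 2.92% and 3.15% of all genes, and the median was -0.08. The zinc-finger factors Egr1 and Egr3 stood at -0.60 (FDR 0.164) and -0.74 (FDR 0.0513), the ERK pathway inhibitor Spry1 at -0.57 (FDR 0.3), and the orphan receptor Nr4a1 at -0.27 (FDR 0.739) in the authors' deposited table (edgeR). Members of the group did not all lean down: Fos stood at 0.04 and Dusp6, an ERK phosphatase, at 0.00, and Jun at 0.32 (FDR 0.658). Among members with a mean of at least 5 CPM the median was -0.02.

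The largest fold changes among genes of at least 5 CPM belonged to heat shock genes that were not called. Hspa1a and Hspa1b, the inducible Hsp70 chaperones, went from 6.89 to 17.9 CPM (1.38, FDR 0.313) and from 14.4 to 34.6 CPM (1.27, FDR 0.337) by edgeR in the authors' deposited table. They are near-identical copies, so they count as 1 observation. Hsph1, a cochaperone, stood at 0.54 (FDR 0.418). In p53WT AML at 10 h the values were 0.98, 1.11 and 0.53 in the same order, and Hspa1a and Hspa1b were called there. Of 32 genes of the unfolded protein response and heat shock, 0 were called in p53null by edgeR, and 27 were positive with a median of 0.09. At an unadjusted p under 0.05, 4 were higher and 0 lower, against 3.15% and 2.92% of all genes.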

How the data were processed

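RNA of GFP-sorted AML cells was sequenced from unstranded TruSeq RNA v2 libraries, per the labels' protocols. CASAVA 1.8.2, Bowtie, HTSeq and edgeR with build mm9 are named in the submitters' processing notes, without order or settings; no gene annotation is named there. The authors deposited 1 table per comparison. For p53null at 10 h it holds log2 values (mean CPM and fold change), p-values and FDR, per the file headers, and no value per sample. The p53WT 10 h table also holds deposited read counts, with totals of 21578685 to 48118513 per library.

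The authors' edgeR p-values and FDR are the test used; the FDR equals a Benjamini-Hochberg adjustment of the deposited p-values over all 12861 genes. A quasi-likelihood fit of p53null needs counts and was not run. Calculations used Python 3.11.15 and pandas 2.3.3 and were tested on simulated data. Vehicle level was 2 × mean CPM / (1 + fold). The 36 gene lists and the genes described were chosen with earlier results of these data known. Named genes are the 10 largest rises and falls at FDR under 0.05 and a mean of at least 5 CPM, per list the 3 smallest p-values, calls shared or opposed between genotypes, and 12 set genes; all other called genes, and the list members given beside them for their role, were chosen after their values were seen. Of 12861 gene IDs, 12366 had a symbol. Alternatives were other FDR limits, a level filter, a fold limit, genes of both 10 h tables and centring.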

Additional observations from a re-analysis of the deposited data

How the results depend on the processing

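At an FDR under 0.1 there were 29 genes higher and 13 lower in p53null, and 1 gene, Mcpt8, was then called lower in both genotypes at 10 h (0 at 0.05). With a mean of at least 5 CPM the falls numbered 3, without Angpt1 and Insm1, and with a log2 fold change of at least 1 in size required, 0 rises and 0 falls passed. At an FDR under 0.01, 18 of the 24 calls were kept, and 23 were kept when only genes of both 10 h comparisons were tested. Of 72 alternative medians over the 36 lists, 70 moved by less than 0.05 log2; the exceptions were the immediate early and the stromal lists at 5 CPM or more, at -0.02 and -0.28. Centring on the median of all genes changed no sign among the 122 named genes. Depth behind the p53null values is unknown, so the smallest change that 3 samples against 3 could show was not worked out. No paired analysis was possible because the p53null table has no value per sample and the p53WT count columns are not tied to numbered titles; leaving out each replicate could not be run for the same reason.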

Other observations

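Genes of immune recognition had small positive fold changes in p53null AML at 10 h, and none was called. Of 35 interferon-stimulated genes in the p53null table, 34 were positive with a median of 0.15, and 0 were called by edgeR's FDR. At an unadjusted p under 0.05, 2 were higher, against 3.15% of all genes. These 2 were Trim30a, a TRIM-family gene (0.25, FDR 0.501), and Stat2, which carries the type I interferon signal (0.18, FDR 0.82). Isg15, a ubiquitin-like modifier, stood at 0.34 (FDR 0.825) and Gbp2, a guanylate-binding protein, at 0.54 (FDR 0.945) in the authors' deposited table. In p53WT AML at 10 h the list had 5 of 35 genes called lower, against 6.83% of all genes, and a median of -0.16. The summed levels overlapped there, with 1634 to 2679 CPM in the vehicle libraries and 1753 to 2214 CPM in those with CX-5461. Of 22 genes of antigen presentation, 20 were positive in p53null with a median of 0.14; Ciita, the activator of MHC class II genes, stood at 0.42 (edgeR FDR 0.692) and Cd74, the invariant chain, at 0.24 (FDR 0.895). Members of these lists respond to shared signals, so their common sign is not that many separate observations.

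Lysosomal genes gave a like picture. Of 38 members, 32 were positive in p53null with a median of 0.05, and 0 were called by edgeR. At an unadjusted p under 0.05, 5 were higher. Of all genes, 3.15% were higher and 2.92% lower at that level. Among the 5 were the proteases Ctsd (0.17, FDR 0.296) and Ctsb (0.15, FDR 0.474) and the membrane protein Gpnmb (0.42, FDR 0.465) in the authors' deposited table. The stress response of Atf4 had 34 measured genes, 0 called by edgeR and 2 lower at an unadjusted p under 0.05, with a median of -0.08; Stc2, a secreted glycoprotein, stood at -0.32 (FDR 0.4) and Chac1, which breaks down glutathione, at -0.34 (FDR 0.667). Cholesterol and fatty acid synthesis had 35 measured genes, 0 called by edgeR, with 1 higher and 1 lower at an unadjusted p under 0.05 and a median of -0.04. In p53WT AML at 10 h, 12 of 34 were called higher and 4 lower, against 3.57% and 6.83% of all genes.

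The remaining lists held no call by edgeR's FDR in p53null AML at 10 h. Of 30 monocyte and macrophage genes, 4 were higher and 1 lower at an unadjusted p under 0.05, against 3.15% and 2.92% of all genes. The median of the 30 was 0.06. In p53WT AML at 10 h, 14 of 29 were called lower, against 6.83% of all genes, with a median of -0.60. Over the 28 in both 10 h tables the summed p53WT levels overlapped, with 2802 to 3588 CPM with vehicle and 2852 to 3258 CPM with CX-5461. Of 26 myeloid transcription factors, 1 was higher and 2 lower at an unadjusted p under 0.05, with a median of 0.01. Myeloid cytokine receptors had 28 measured genes, 1 of them higher, and a median of 0.03. Among 25 genes of the BCL2 family and caspases, which set the threshold of cell death, 0 passed an unadjusted p of 0.05 and the median was -0.03. Of 27 NF-kB genes, 2 were higher and 0 lower at that level, with a median of -0.01. The glycolysis list also holds genes outside that pathway. Of its 28 measured genes, 3 were higher and 1 lower at an unadjusted p under 0.05, with a median of 0.02. The 3 higher were Bnip3, a mitophagy receptor induced in hypoxia (0.37), P4ha1, a collagen prolyl hydroxylase subunit (0.29), and Pfkp (0.13). These fold changes are from the authors' deposited table. The 49 nuclear genes of the respiratory chain had 0 under an unadjusted p of 0.05 and a median of 0.02. Only 3 of 24 replication-dependent histone genes and 12 of 21 snoRNA host genes were in the p53null table.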
